A study of Mus musculus with 12 samples.

Results

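The genes described here are 10 components of the Wnt and beta-catenin pathway: the ligand gene Wnt5a, the receptor gene Fzd1, the secreted Wnt modulators Sfrp1, Sfrp2 and Sfrp4, beta-catenin itself (Ctnnb1), its DNA-binding partners Tcf7l2 and Lef1, and the target genes and feedback inhibitors Axin2 and Nkd1. They were picked by name out of 38894 genes, with results from these same tumors known, and all 10 were among the 17599 genes with enough reads to be tested. Sfrp2 in particular was singled out on these libraries. Differences of these 10 genes between groups are therefore given as values with their errors, and where calls among them are counted nothing is read from the count.

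RNA was sequenced from 12 flank tumors grown from Rd76-9, a mouse embryonal rhabdomyosarcoma line that was isolated from a carcinogen-induced tumor of a female mouse, in wild type C57/Bl6J hosts. Each tumor came from 1 mouse, and the mice were 8 to 12 weeks old. The 4 groups held 3 tumors each: vehicle (m1, m2 and m3), vincristine (VCR) at 0.25 mg/kg (m4, m5 and m6), RCM1, an inhibitor of the transcription factor FOXM1, at 8 µg per injection in folic acid-coated nanoparticles (RCM1-NPFA; m7, m8 and m9), and both drugs (VCR + RCM1-NPFA; m10, m11 and m12). Tumors were collected at day 16. The titles of m1 to m3 call them controls, while a treatment label of the same tumors names RCM1 nanoparticles beside empty ones; they were kept as vehicle. Per tumor, kallisto assigned 29342195 to 32108055 reads to transcripts.

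Wnt ligands bind Frizzled receptors at the cell surface. In the canonical branch this spares beta-catenin from a destruction complex built on axin, and beta-catenin then enters the nucleus, where it binds TCF/LEF factors at genes such as Axin2 and Nkd1, whose products feed back to dampen the signal. In other branches, such as those driven by Wnt5a through Ror2, beta-catenin is not the effector. Secreted Frizzled-related proteins (Sfrp) carry a Frizzled-like domain that binds Wnt ligands outside the cell. In muscle, Wnt signals act on myogenic precursors, and in many tissues the Sfrp genes are expressed by fibroblasts.

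The start regions of Sfrp2, Tcf7l2 and Axin2 are shown because Sfrp2 and Tcf7l2 lay above vehicle in all 9 treated tumors and Axin2 is the most widely used readout of beta-catenin. For each, 250 bases upstream of a RefSeq start are given 5′ to 3′ on the + strand, from RefSeq on GRCm38.p6, at chr3:83766071-83766320 for Sfrp2, chr19:55741560-55741809 for Tcf7l2 (the first of its starts in the table) and chr11:108920099-108920348 for Axin2; the Sfrp2 and Axin2 starts lie inside the span of the gene, downstream of its outermost transcript end. Capitals mark a forkhead core, TGTTTA.
Sfrp2: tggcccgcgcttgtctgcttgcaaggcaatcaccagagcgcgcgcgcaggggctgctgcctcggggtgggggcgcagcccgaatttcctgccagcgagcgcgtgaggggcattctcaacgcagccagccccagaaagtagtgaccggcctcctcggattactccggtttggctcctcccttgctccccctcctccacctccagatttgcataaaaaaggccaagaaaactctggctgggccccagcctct
Tcf7l2: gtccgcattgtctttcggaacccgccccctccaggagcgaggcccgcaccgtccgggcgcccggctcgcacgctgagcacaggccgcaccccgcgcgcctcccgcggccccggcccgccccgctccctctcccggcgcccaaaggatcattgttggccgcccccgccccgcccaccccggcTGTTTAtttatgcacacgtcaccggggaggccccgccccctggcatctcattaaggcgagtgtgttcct
Axin2: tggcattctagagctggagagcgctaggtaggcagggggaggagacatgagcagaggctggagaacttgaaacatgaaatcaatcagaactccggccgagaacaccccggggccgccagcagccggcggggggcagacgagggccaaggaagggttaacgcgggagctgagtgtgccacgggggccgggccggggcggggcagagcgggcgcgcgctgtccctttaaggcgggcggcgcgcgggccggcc

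The sequences were searched on both strands for the TCF/LEF letters CTTTGAA and CTTTGAT and for the forkhead core, over 300 bases that run from 250 before to 50 after each start. Such windows were listed for 7 of the 10 genes, in 12 windows in all, while Sfrp1, Sfrp4 and Wnt5a had none in the table. Either TCF/LEF string stood in 0 of the 12 windows, against 8.65% of all 32851 windows. The forkhead core stood in 2 of the 12, against 13.4% of all windows: in the first window of Tcf7l2, 69 bases before the start, and 14 bases after an alternative start of Lef1. The upstream bases of Sfrp2 were 63.6% G or C, those of Axin2 69.2% and those of the first start of Tcf7l2 72.8%. A match is only a match of letters, and its absence says nothing of the factor.

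Levels between genes were compared in TPM, which is scaled by transcript length. Ctnnb1 stood far above the other 9 genes, at 232 ± 13.3 TPM (SD, n = 12). Tcf7l2 followed at 15.7 ± 1.08 TPM, and neither of these ranges overlapped that of the next gene. Lef1 at 6.58 ± 1.48 TPM, Fzd1 at 6.07 ± 1.45 TPM and Wnt5a at 6.03 ± 1.13 TPM could not be put in order, since Lef1 lay above Fzd1 in 7 of 12 tumors and Fzd1 above Wnt5a in 5. Sfrp2 averaged 3.67 ± 1.99 TPM and Axin2 1.62 ± 0.246 TPM. Sfrp4 at 0.876 ± 0.654 TPM, Sfrp1 at 0.423 ± 0.315 TPM and Nkd1 at 0.281 ± 0.0849 TPM were the lowest. Nkd1 rested on 9 to 23 reads per tumor, Sfrp4 on 2 to 67 and Sfrp1 on 0 to 92.

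The genes also differed in how even they were across tumors. The highest tumor exceeded the lowest by 1.12 times in CPM (a counts-per-million scale, with library sizes scaled by TMM) for Ctnnb1, by 1.35 times for Tcf7l2 and by 1.58 times for Axin2, but by 19.5 times for Sfrp2 and 33.0 times for Sfrp4. Sfrp1, with 0 reads in m3, has no such ratio.

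**Figure D1:**
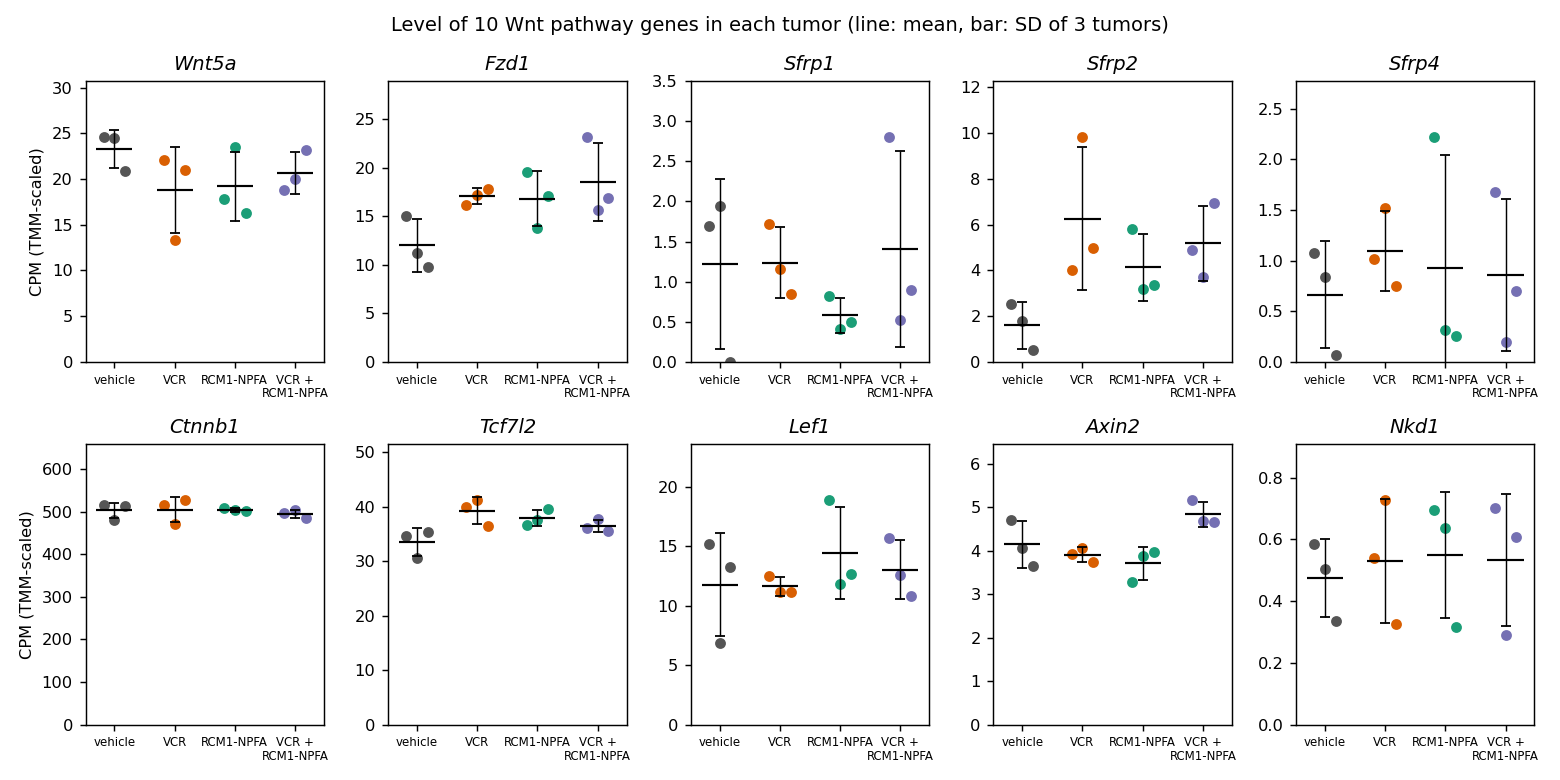
Level of each of the 10 genes in CPM (TMM-scaled; vertical axes start at 0 and differ between panels) in the 12 tumors by group, with points for tumors, lines for means and bars for the SD of 3 tumors. The 9 treated tumors lie above the 3 vehicle tumors for Sfrp2 (3.19 to 9.82 against 0.504 to 2.53) and Tcf7l2, while Ctnnb1 is level across groups. The share of all tested genes with the order seen for Sfrp2 and Tcf7l2 was not counted.

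Among their families, several of these genes were not the main member. Wnt5a had rank 5 of 19 Wnt genes and held 3.27% of their summed mean TPM. Wnt9a at 68.6 ± 10.1 TPM and Wnt10a at 66.0 ± 9.25 TPM were the highest Wnt genes, and 11 of the 19 passed the filter on reads. Fzd1 had rank 3 of 10 Frizzled genes with 7.98% of their TPM, behind Fzd2 at 49.5 ± 7.48 TPM and Fzd7 at 12.4 ± 1.67 TPM. Sfrp2 made up 70.0% of the mean TPM of the 4 Sfrp genes and Frzb together, with 52.5, 46.5 and 69.3% in the vehicle tumors and 58.6 to 83.2% in the treated tumors. Of the TCF/LEF genes, Tcf7l1 was the highest at 23.2 ± 4.68 TPM, followed by Tcf7l2, Lef1 and Tcf7 at 4.93 ± 1.22 TPM. Axin1, the constitutive scaffold of the destruction complex, was at 64.4 ± 4.09 TPM and held 97.6% of the axin TPM. Nkd2 exceeded Nkd1, at 1.13 ± 0.409 TPM.

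**Figure D2:**
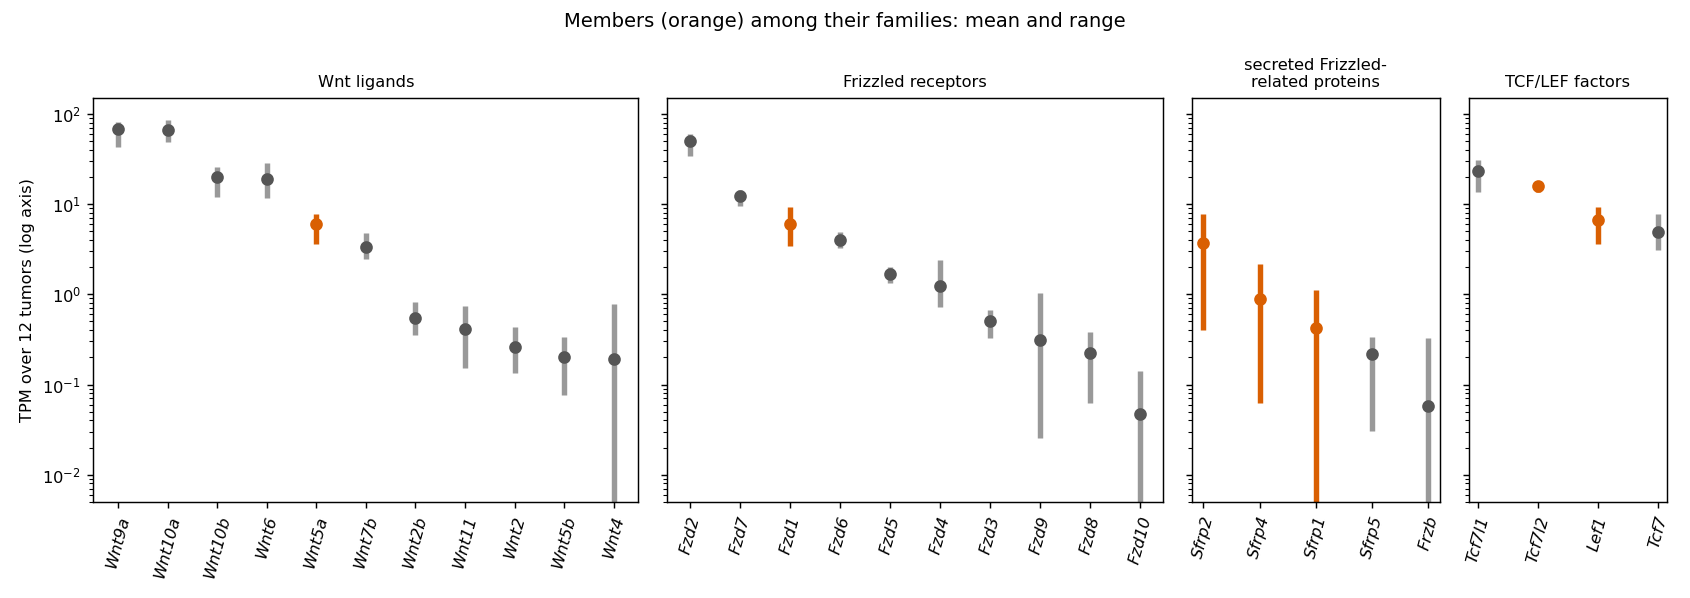
Mean (point) and range (bar) over the 12 tumors in TPM on a log axis, for the 11 highest Wnt genes and for all Frizzled, secreted Frizzled-related and TCF/LEF genes, with the genes of this report in orange. Bars that reach the lower edge stand for a tumor at or near 0; Wnt9a, Wnt10a, Fzd2 and Tcf7l1 stand above the members of their families.

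The tumors also differed in RNA of markers of other cell types, and the part of these in the levels of the 10 genes was not tested. Of the 7 genes listed for rhabdomyosarcoma, Myf5 was at 48.8 to 69.8 CPM in all tumors, whereas Myod1 and Myog were at 0.0617 CPM or less in vehicle tumors. After VCR Myod1 was 2.38, 2.38 and 1.202 CPM and Myog 2.16, 1.65 and 1.43 CPM, and both passed edgeR's test there, as did Des. Of the 6 genes of this list that were tested, 4 had a log2 fold change above 0 and 2 below 0 in each comparison with vehicle. Pax3 was 3.45, 2.72 and 2.89 CPM in vehicle tumors and 2.44, 2.18 and 2.76 CPM after VCR. After RCM1-NPFA Myod1 was 0.0331 CPM in m7, 0 CPM in m8 and 2.30 CPM in m9. The 12 muscle fibre markers summed to 42.2 to 161 CPM in vehicle tumors, 1662 to 12210 CPM after VCR, 153 to 18520 CPM after RCM1-NPFA and 452 to 4537 CPM after both drugs. The highest were m9 and m5. All 12 had a log2 fold change above 0 in each comparison with vehicle, and 5 passed the test after VCR. After RCM1-NPFA the sum was 18520 CPM in m9, but 153 CPM in m7 and 212 CPM in m8, beside 161 CPM in vehicle tumor m1. The 8 endothelial markers summed to 144 to 204 CPM in vehicle and 207 to 289 CPM in treated tumors. The log2 fold change was above 0 for 8 of 8 in each comparison with vehicle, and 2, Egfl7 and Tie1, passed the test after VCR. The 12 fibroblast markers summed to 4369 to 6107 CPM in vehicle and 5044 to 7196 CPM in treated tumors. The 4 Y-linked genes measured summed to 0.529 to 1.30 CPM in 5 tumors (m1, m2, m5, m7 and m10) and 16.2 to 26.0 CPM in the other 7, so that 2 of 3 vehicle tumors and 1 of 3 in every treated group were in the low set. In bulk tumors, fewer cells of a type and less RNA per cell cannot be told apart.

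Among the ligand and the receptor, Wnt5a (chr14:28504543-28527448), a mostly non-canonical Wnt, was 24.6, 24.4 and 20.9 CPM in vehicle tumors. After VCR it was 22.1, 13.4 and 21.0 CPM, after RCM1-NPFA 17.8, 23.5 and 16.3 CPM, and after both drugs 18.8, 20.0 and 23.2 CPM. The treated tumors were spread through and below the vehicle range, with m5 the lowest, and no treated group was separate from vehicle. The log2 fold changes were -0.31 ± 0.19 (SE) after VCR, -0.28 ± 0.19 after RCM1-NPFA and -0.17 ± 0.19 after both drugs. Without m5 the first value was -0.11.

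Fzd1 (chr5:4753839-4758216), a Frizzled receptor gene with 1 annotated transcript, was 15.1, 11.3 and 9.78 CPM in vehicle tumors. It was 16.2, 17.2 and 17.8 CPM after VCR, 19.6, 13.9 and 17.1 CPM after RCM1-NPFA and 23.2, 15.6 and 16.9 CPM after both drugs. All tumors but m8 lay above the highest vehicle tumor. The log2 fold changes were 0.51 ± 0.19, 0.48 ± 0.19 and 0.63 ± 0.19 in that order. Across tumors Fzd1 had r = 0.64 with the summed endothelial, 0.60 with the summed muscle fibre and 0.25 with the summed fibroblast markers. Single fibroblast markers ran from r = -0.092 for Col3a1 and 0.34 for Pdgfra to 0.84 for Lum and 0.89 for Mfap5. The part of these cell types was not tested.

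Sfrp2 (chr3:83765750-83774314) encodes a secreted Frizzled-related protein. It was 2.53, 1.78 and 0.504 CPM in vehicle tumors, from 82, 53 and 15 reads. After VCR it was 3.996, 9.82 and 4.97 CPM, after RCM1-NPFA 5.82, 3.19 and 3.37 CPM, and after both drugs 4.90, 3.72 and 6.95 CPM. Every treated tumor stood above every vehicle tumor, while the 3 treated groups overlapped one another. The fold changes were 3.88 after VCR (log2 1.96 ± 0.52), 2.56 after RCM1-NPFA (1.36 ± 0.51) and 3.22 after both drugs (1.69 ± 0.51). The combination differed from VCR by -0.27 ± 0.49 and from RCM1-NPFA by 0.33 ± 0.49 on the log2 scale, so the difference between treated groups was within its error.

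Vehicle tumor m3 was the lowest for Sfrp2, and m5 was the highest. Without single tumors the log2 fold change after VCR ran from 1.48 (without m5) to 2.45 (without m1). The one after RCM1-NPFA ran from 0.94 (without m3) to 1.85 (without m1), and the one after both drugs from 1.27 (without m3) to 2.18 (without m1). Within the 5 tumors of low Y-linked level, Sfrp2 was 1.78 to 2.53 CPM in the 2 vehicle and 4.90 to 9.82 CPM in the 3 treated tumors. Within the other 7 it was 0.504 CPM in the single vehicle tumor and 3.19 to 6.95 CPM in the 6 treated tumors. Since all treated tumors stood above all vehicle tumors, any such split had to show this order.

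Across the 12 tumors, Sfrp2 followed some genes of the fibroblast list and not others. On log2 CPM, Pearson's r with Sfrp2 was 0.93 for Dpt, 0.92 for Lum, 0.91 for Thy1 and 0.89 for Dcn, extracellular matrix and surface genes of fibroblasts. It was 0.35 for Col1a2, -0.23 for Col3a1 and 0.091 for Pdgfra, and the median over the 12 genes was 0.75, while r with their summed CPM was 0.19. The median r was 0.76 over the 8 endothelial and 0.67 over the 12 muscle fibre markers. Dcn was 8.13 to 18.3 CPM in vehicle and 15.5 to 37.6 CPM in treated tumors, and with Col1a1 and Pi16 it was 1 of 3 fibroblast markers past the test after VCR. These points share libraries and depth, and the part of other cell types in the Sfrp2 values was not tested.

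**Figure D3:**
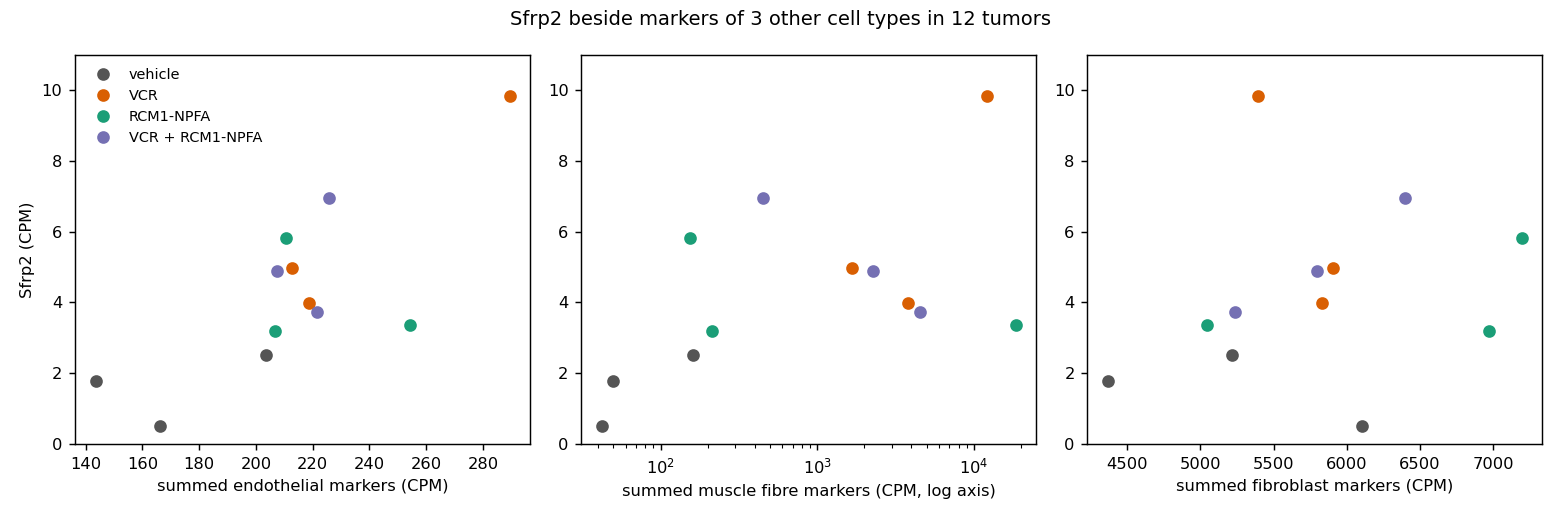
Sfrp2 in CPM against the summed CPM of 8 endothelial, 12 muscle fibre (log axis) and 12 fibroblast markers, 1 point per tumor colored by group. The vehicle tumors are lowest for Sfrp2 and hold the 3 lowest endothelial sums, while the fibroblast sum, made up mostly of collagen reads, does not order the tumors by Sfrp2.

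The genes whose log2 CPM was most like that of Sfrp2 over the 12 tumors were Dact1 (r = 0.97), Arpc3 (0.96), Ndn (0.95), Pdgfrl (0.94) and Rian (0.94). Dact1, which encodes a modulator of Dishevelled, ran from 0.773 to 2.65 CPM, and Arpc3, a subunit of the Arp2/3 complex, from 97.3 to 146 CPM. Ndn ran from 0.202 to 1.89 CPM and Pdgfrl from 0.101 to 1.92 CPM. How high the top r would be by chance was not tested. After subtracting group means the r values were 0.92 for Dact1, 0.91 for Arpc3, 0.87 for Ndn, 0.89 for Pdgfrl and 0.88 for Rian. Among the other 9 genes of this report Fzd1 was the most alike, with r = 0.82.

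Sfrp1 (chr8:23411383-23449632), another secreted Frizzled-related protein gene, was 1.70, 1.95 and 0 CPM in vehicle tumors. The 0 reads of m3 allow up to 0.101 CPM, counting error only. It was 1.71, 1.16 and 0.844 CPM after VCR, 0.827, 0.415 and 0.503 CPM after RCM1-NPFA and 2.80, 0.517 and 0.896 CPM after both drugs. The groups overlapped in all comparisons, and the log2 fold changes of 0.03 ± 0.89, -1.06 ± 0.94 and 0.21 ± 0.88 were small beside their errors or close to them. Under limma-voom the values were 1.62, 0.54 and 1.51 in that order. After both drugs the value turned to -0.80 without m10, and after VCR to -0.55 without m3.

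Sfrp4 (chr13:19623175-19632825) was 1.08, 0.839 and 0.0672 CPM in vehicle tumors, 1.02, 1.52 and 0.747 CPM after VCR, 2.22, 0.319 and 0.252 CPM after RCM1-NPFA and 1.67, 0.194 and 0.704 CPM after both drugs. Its groups overlapped too, with log2 fold changes of 0.71 ± 0.94, 0.47 ± 0.95 and 0.37 ± 0.95. Single tumors decided 2 of these signs, since the value after RCM1-NPFA was -1.21 without m7 and that after both drugs -0.58 without m10. Sfrp1 and Sfrp4 followed each other across tumors (r = 0.82). Sfrp4 was 0.839 to 2.22 CPM in the 5 tumors of low Y-linked level and 0.0672 to 1.02 CPM in the other 7. With the Y-linked level as a term in the fit, a choice made after seeing the data, the log2 fold changes of Sfrp4 were 1.83, 1.01 and 1.16, those of Sfrp1 1.08, -0.21 and 0.83 and those of Sfrp2 2.32, 1.76 and 2.21.

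**Figure D4:**
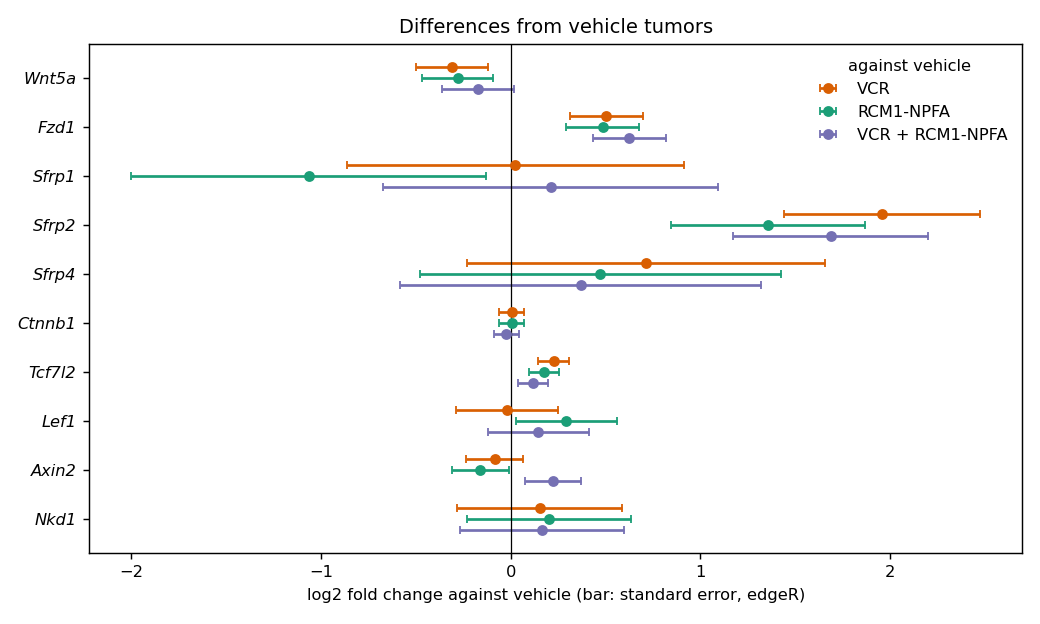
Log2 fold change against vehicle with its standard error from the edgeR fit, for the 10 genes in each treatment. Sfrp2 and Fzd1 lie to the right of 0 by more than 2 standard errors in all 3 comparisons, the bars of Sfrp1, Sfrp4 and Nkd1 are wide, and Ctnnb1 sits at 0.

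Ctnnb1 (chr9:120933400-120960507) encodes beta-catenin, whose activity is set mainly by the stability of the protein. Its RNA was 515, 481 and 512 CPM in vehicle tumors, 515, 471 and 528 CPM after VCR, 510, 503 and 501 CPM after RCM1-NPFA and 497, 503 and 484 CPM after both drugs. The log2 fold changes were 0.0050, 0.0050 and -0.023, with an SE of 0.065 in each. Protein was not measured by these libraries.

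Of the nuclear partners, Tcf7l2 (chr19:55741797-55933659) was 34.7, 30.6 and 35.4 CPM in vehicle tumors. It was 40.0, 41.3 and 36.5 CPM after VCR, 36.7, 37.5 and 39.6 CPM after RCM1-NPFA and 36.1, 37.8 and 35.6 CPM after both drugs. All 9 treated tumors lay above the vehicle tumors, by little: m12 exceeded m3 by 35.6 to 35.4 CPM. The log2 fold changes were 0.23 ± 0.08, 0.18 ± 0.08 and 0.12 ± 0.08. Across tumors Tcf7l2 followed the summed endothelial markers (r = 0.87) and the summed muscle fibre markers (r = 0.79), whose part was not tested.

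Lef1 (chr3:131110297-131224357) was 15.2, 6.88 and 13.2 CPM in vehicle tumors, a wider range than in the VCR group at 12.5, 11.2 and 11.2 CPM. It was 18.9, 11.8 and 12.6 CPM after RCM1-NPFA and 15.7, 12.5 and 10.9 CPM after both drugs. The groups overlapped, with log2 fold changes of -0.02 ± 0.27, 0.29 ± 0.27 and 0.15 ± 0.27. Lef1 followed the summed pericyte markers more closely than any other of 9 marker sums (r = 0.78).

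Axin2 (chr11:108917828-108950783), the target gene and feedback scaffold, was 4.72, 4.06 and 3.66 CPM in vehicle tumors. After VCR it was 3.93, 4.07 and 3.74 CPM, after RCM1-NPFA 3.28, 3.89 and 3.96 CPM, and after both drugs 5.17, 4.69 and 4.67 CPM. The combination tumors stood above all tumors of either single drug but overlapped vehicle, where m1 was at 4.72 CPM. The log2 fold changes against vehicle were -0.08 ± 0.15, -0.16 ± 0.15 and 0.22 ± 0.15. The combination differed from VCR by 0.31 ± 0.15 and from RCM1-NPFA by 0.38 ± 0.15, a fold of 1.24 and 1.30. Leaving out single tumors kept these between 0.27 and 0.34 and between 0.30 and 0.43.

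Nkd1 (chr8:88521342-88594887), a Dishevelled-binding feedback inhibitor, was 0.586, 0.504 and 0.336 CPM in vehicle tumors, 0.539, 0.728 and 0.325 CPM after VCR, 0.695, 0.638 and 0.315 CPM after RCM1-NPFA and 0.700, 0.291 and 0.608 CPM after both drugs. The groups covered the same range, with log2 fold changes of 0.15, 0.20 and 0.16, each with an SE of 0.43. Nkd1 had at most 23 reads in a tumor.

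Of the 3 secreted modulators, Sfrp2 lay above every vehicle tumor in 9 of 9 treated tumors. Sfrp1 and Sfrp4 overlapped vehicle in every treatment, as Axin2, Nkd1 and Lef1 did. For what share of all tested genes the treated tumors all lie above vehicle, as for Sfrp2 and Tcf7l2, was not counted. In the single comparisons with vehicle, the groups did not overlap, in either direction, for 11.4 to 24.4% of all genes. These comparisons share the same 3 vehicle tumors. Nothing is read from the order of Sfrp2 and Tcf7l2, since Sfrp2 was singled out on these libraries. Of the 10 genes, 7 had a log2 fold change above 0 after VCR, 7 after RCM1-NPFA and 8 after both drugs. The medians were 0.0892, 0.189 and 0.187, beside 0.00168, 0.00279 and 0.00159 over all genes tested.

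The groups did not overlap for 3 of the 10 genes after VCR (Fzd1, Sfrp2 and Tcf7l2), beside 24.4% of all genes tested. After RCM1-NPFA there were 2 (Sfrp2 and Tcf7l2), beside 11.4% of all genes, and after both drugs 3 (Fzd1, Sfrp2 and Tcf7l2), beside 12.6%. Axin2 was the 1 gene separate between the combination and VCR, beside 12.9% of all genes, and between the combination and RCM1-NPFA, beside 5.88%. By edgeR's quasi-likelihood test at an adjusted p of 0.1, 1 of the 10, Sfrp2, was called after VCR, beside 5.54% of all genes, and 0 after RCM1-NPFA, after both drugs and in the comparisons of the combination with VCR and with RCM1-NPFA, beside 0% of all genes in each. That call of Sfrp2 was lost when only the 2 groups compared were fitted, at a threshold of 0.05, without m5 and m9 together, and without any single one of m1, m2, m4, m5, m10, m11 or m12. DESeq2 called Fzd1, Sfrp2 and Tcf7l2 after VCR, beside 14.3% of all genes with an adjusted p, and Sfrp2 after both drugs, beside 0.362%. With the Y-linked level as a term edgeR called Fzd1 and Sfrp2 after VCR, beside 2.14%. The 3 comparisons with vehicle share the same 3 vehicle tumors, and nothing is read from these counts, since the genes were selected on the same libraries.

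The rest of the pathway was tested on 99 other genes, of which 76 had enough reads. After VCR, 5 of these 76 rose and 2 fell at an adjusted p under 0.1 over all 17599 genes, against 975 of all genes (491 higher and 484 lower). The 5 were the ligand gene Wnt11, the receptor genes Fzd2 and Ror2, the beta-catenin target Tnfrsf19 and Ctnnbip1, an inhibitor of the binding of beta-catenin to TCF. The 2 that fell were the tankyrase genes Tnks and Tnks2, whose products mark axin for degradation. At an unadjusted p under 0.05 there were 20 of the 76 (26.3%), beside 22.1% of all genes. The median log2 fold change of the 76 genes was 0.00846, beside 0.00168 over all genes, with 39 above and 37 below 0.

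Wnt11 was 0.185 to 0.235 CPM in vehicle tumors and 0.617 to 0.860 CPM after VCR, a log2 fold change of 1.79 ± 0.39 (edgeR adjusted p = 0.0712) from 6 or 7 reads in each vehicle tumor. Ror2, a receptor for Wnt5a, went from 0.470 to 1.02 CPM in vehicle to 1.59 to 2.08 CPM after VCR (1.32 ± 0.35, adjusted p = 0.0871). Fzd2, the highest Frizzled gene, went from 71.8 to 97.7 CPM in vehicle to 119 to 125 CPM (0.50 ± 0.11, adjusted p = 0.0725). All 3 are surface or secreted components.

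Ctnnbip1 was 29.9 to 32.5 CPM in vehicle and 38.2 to 43.8 CPM after VCR (0.40 ± 0.07, adjusted p = 0.0651). Tnfrsf19 had 1, 2 and 3 reads in the vehicle tumors and 16, 32 and 22 after VCR. The pooled reads gave a ratio of 11.6 with a 95% exact counting interval of 5.07 to 32.7. That interval holds counting error only and leaves out the spread between mice. Its log2 fold change in edgeR was 3.46 ± 0.82 (edgeR adjusted p = 0.0766). Tnfrsf19 was the 1 gene edgeR called of 11 tested on the list of beta-catenin targets. DESeq2 gave Tnfrsf19 no adjusted p and called 3 others of that list, Nkd2, Tcf7 and Znrf3. Tnks fell from 26.8 to 45.4 CPM in vehicle to 16.3 to 25.3 CPM (-0.71 ± 0.19, adjusted p = 0.0886), and Tnks2 from 168.1 to 217.5 CPM to 144.1 to 168.3 CPM (-0.37 ± 0.10, adjusted p = 0.0950), where m6 reached the vehicle range.

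These calls after VCR were close to the threshold and rested on few tumors. Their number was 0 without m2, m4, m5 or m11, 3 without m1 or m12 and 12 without m6. Without m5 and m9, the tumors with the most muscle fibre RNA, 2 genes passed, Tnfrsf19 and Fzd9, a set chosen after seeing the data.

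After RCM1-NPFA edgeR called 0 of the 76 genes, with 12 (15.8%, beside 9.78% of all genes) at an unadjusted p under 0.05. limma-voom called 0 and the DESeq2 Wald test 3. Those of lowest p were Wnt11 (log2 1.59 ± 0.39), Fzd2 (0.41 ± 0.11) and Ctnnbip1 (0.27 ± 0.07), each with an edgeR adjusted p of 0.419, which did not pass. After both drugs edgeR called 0, with 12 (15.8%, beside 7.30% of all genes) at an unadjusted p under 0.05, and limma-voom and DESeq2 called 0 each. The lowest p were those of Wnt11 (1.56 ± 0.39), Fzd2 (0.39 ± 0.11) and Tnfrsf19, with an edgeR adjusted p of 0.668 each. Tnfrsf19 had 29, 11 and 10 reads there, a ratio to vehicle of 8.07 (95% exact counting interval 3.46 to 23.0, counting error only). Between the combination and VCR edgeR called 0 with 4 (5.26%, as of all genes) at an unadjusted p under 0.05, between the combination and RCM1-NPFA 0 with 0 (2.07% of all genes), and both other tools called 0 in each.

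**Figure D5:**
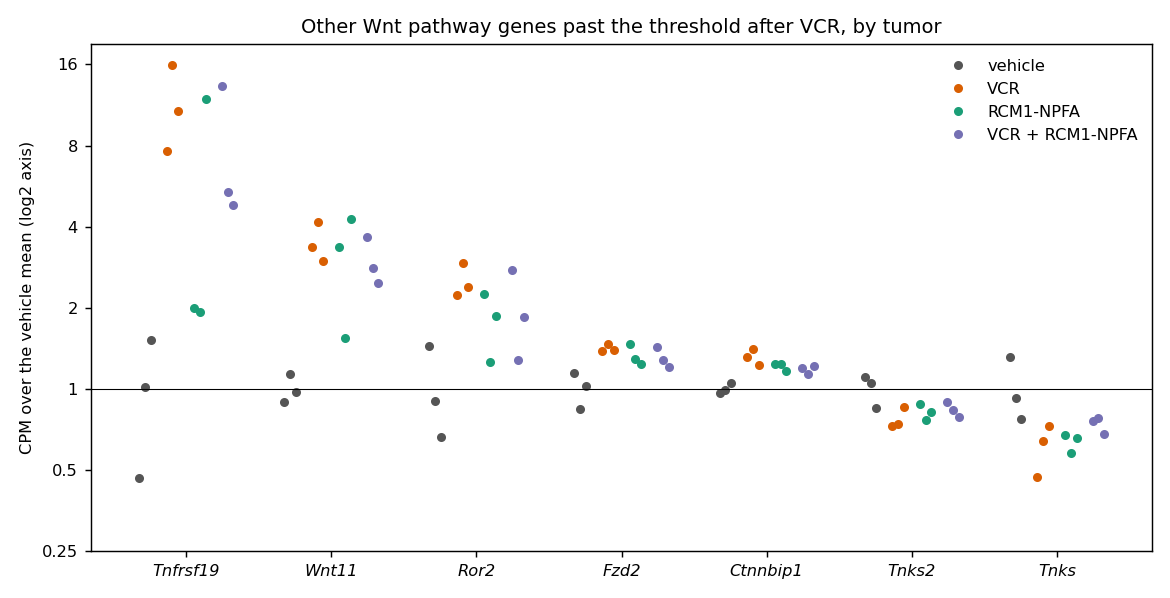
CPM of the 7 other Wnt pathway genes past the threshold after VCR, each divided by its vehicle mean (log2 axis), 1 point per tumor colored by group. For Wnt11, Fzd2, Ctnnbip1 and Tnfrsf19 all 9 treated tumors lie above the 3 vehicle tumors. For Tnfrsf19 this is by 0.101 CPM at most in vehicle and 0.128 CPM at least in treated tumors. The genes were picked for passing after VCR, which favors such an order in the VCR tumors. All 3 treated groups are set against the same 3 vehicle tumors. The share of all tested genes with this order was not counted. Points of Tnks, Tnks2 and Ror2 overlap between vehicle and some treated groups.

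By role, the called genes were spread out, and 5.54% of all genes tested were called after VCR. The lists overlap, so the counts by role are not of separate genes. Tcf7 stands among nuclear partners and beta-catenin targets, and Znrf3 among R-spondin module genes and beta-catenin targets. Of 12 tested ligand genes and secretion factors 1 rose after VCR, and of 14 receptors 2 rose. Of 13 genes listed for the destruction complex and its regulators 2 fell, Tnks and Tnks2. Of 12 nuclear partners 1 rose, and of 11 beta-catenin targets 1 rose. None of 4 R-spondin module genes, 5 further secreted inhibitors or 9 planar polarity genes passed in edgeR's test. The list of the destruction complex also holds the Dishevelled genes Dvl1, Dvl2 and Dvl3, which like the tankyrases are regulators and not parts of it. Log2 fold changes in this list were below 0 for 10 of 13 genes after VCR. They were below 0 for 11 of 13 after RCM1-NPFA and after both drugs. The medians were -0.0912, -0.0810 and -0.0758, beside 0.00168, 0.00279 and 0.00159 over all genes tested. Of the beta-catenin targets, 7 of 11 had a log2 fold change above 0 after VCR, 8 after RCM1-NPFA and 7 after both drugs. The medians of these targets were 0.377, 0.145 and 0.0878. All 3 comparisons share the same 3 vehicle tumors, so their counts of signs do not repeat one another independently.

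The split of reads over transcripts was not used to choose the genes and was tested between the 3 vehicle and the 9 treated tumors. Of the 10 genes, 7 had a second transcript with at least 5% of reads, and 0 passed the exact permutation test (two-sided, smallest possible p 0.00909) at an adjusted p of 0.1; 1 had an unadjusted p under 0.05. For Axin2, the transcript of 4279 bases took 28.2, 0 and 31.5% of reads in vehicle tumors, 41.7, 61.4 and 14.9% after VCR, 51.4, 66.6 and 38.1% after RCM1-NPFA and 48.0, 47.3 and 58.8% after both drugs. Its mean share was 19.9% in vehicle and 47.6% in treated tumors (exact permutation p = 0.0455, adjusted p = 0.286), and 8 of 9 treated tumors were above the vehicle tumors. These are kallisto's divisions of 99 to 170 reads between 6 annotated transcripts. Without m6, the 1 treated tumor within the vehicle range, the adjusted p was 0.0849, and over all alternatives it ran from there to 0.545.

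For Wnt5a, the transcript of 6286 bases held 49.9% of reads in vehicle and 56.9% in treated tumors (exact permutation p = 0.0818, adjusted p = 0.286). For Ctnnb1 the transcript of 3640 bases held 84.3% and 77.8%, for Lef1 the one of 3554 bases 62.2% and 44.6%, and for Tcf7l2, with 55 annotated transcripts, the one of 4003 bases 25.1% and 24.0%. The shares of these 3 genes overlapped between vehicle and treated tumors. Sfrp2 had 96.5% of its reads on the transcript of 2001 bases.

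The genes most like Axin2 over the 12 tumors were Gm33475 (r = 0.83), LOC108167850 (0.83), Ms4a4c (0.83), Stard3nl (0.82) and Gm52186 (0.81), weaker than the leading genes of Sfrp2. Gm33475 was only 0.132 to 0.426 CPM and LOC108167850 0.134 to 0.512 CPM. All such lists hold the highest r among 17599 tested genes over 12 tumors. How high the top r would be by chance was not tested. Those most like Wnt5a were Zfp85 (r = 0.93), Gm36681 (0.90), Lilra5 (0.88), Efemp1 (0.87), an extracellular matrix gene, and Gm30286 (0.86). Between Wnt5a and Tcf7l2 r was -0.67, and between Wnt5a and Sfrp2 it was -0.44. Wnt5a also had r = -0.69 with the summed endothelial and -0.65 with the summed muscle fibre markers, whose part was not tested.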

How the data were processed

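RNA of 12 tumors was sequenced from poly-A libraries, made with a kit named as stranded but described as non-stranded, and reads of overlapping antisense genes may therefore be mixed. Per the labels and methods, the authors assigned reads to GRCm38 transcripts with kallisto and deposited, per transcript, estimated counts (not normalized, not whole), TPM and the effective length. The authors' TPM values were summed per gene for levels. Estimated counts of 120289 of 120299 transcripts were matched to RefSeq genes (0.0141% of reads unmatched), summed to 38894 genes and rounded. Each tumor held 29342195 to 32108055 reads.

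Genes were filtered with filterByExpr (minimum count 10), scaled by TMM and fitted in edgeR 4.0.16 (R 4.3.3; quasi-likelihood F test), all 12 tumors in 1 fit of 4 groups, no covariate, with Benjamini-Hochberg adjustment and a threshold of 0.1, which follows the study. Standard errors were derived from the log2 fold change and its F. The fit was tested on simulated counts. Groups were taken from titles. The p-values of edgeR rest on the spread between mice within groups, estimated from all 12 tumors together, with 3 mice per group. Transcript shares were compared by exact permutation (scipy 1.17.1). Correlations used log2 CPM with a prior count of 2 and are descriptions.

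Named genes are the 10 members, other pathway genes past the threshold against vehicle (else the 3 of lowest p) and the 5 genes most like Sfrp2, Axin2 and Wnt5a. The members and all lists were chosen with earlier results of these data known. Alternatives were DESeq2 1.42.0, limma-voom (limma 3.58.1), other size factors, filters, length offsets, a threshold of 0.05 and leaving out tumors. The Y-linked term and the omission of m5 and m9 were added after seeing the data. Promoter sequences are from RefSeq (GRCm38.p6). Protein sequences were not used here.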

Additional observations from a re-analysis of the deposited data

How the results depend on the processing

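Of 1050 refitted log2 fold changes of the 10 genes, 1043 moved by less than the spread between replicates, 7 moved by more, all of them for Sfrp1, Sfrp4, Ctnnb1 or Tcf7l2, and 0 called values changed sign. Values of Sfrp1, Sfrp4, Ctnnb1, Lef1, Nkd1 and Axin2 against vehicle, within their errors of 0 or near it, did turn sign without single tumors. The counts of called genes were less stable. After VCR, 975 genes were called, against 648 with no count filter, 465 (352 higher, 113 lower) with only the groups compared, 2214 by DESeq2, 9 at a threshold of 0.05, 376 with the Y-linked term, 253 (219 higher, 34 lower) without m5 and m9, and 0 to 1998 without single tumors. Of the other Wnt genes 7 were called, against 11 by DESeq2, 0 at 0.05, 2 without m5 and m9 and 0 to 12 without single tumors. After RCM1-NPFA the 0 calls became 278 by DESeq2, 3 of them other Wnt genes (Ctnnbip1, Fzd2 and Tnks), and 0 to 8 without single tumors. After both drugs they became 60 by DESeq2, 138 without m5 and m9, 1 of them another Wnt gene (Tnfrsf19), and 0 to 44 without single tumors. The cause was not tested. Without single tumors 0 to 1 transcript shares passed. The combination against either drug gave 0 calls under every alternative. Leaving out 1 tumor leaves 2 in its group. No paired analysis was possible because the mice carry no pairing across groups.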

Other observations

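Genes of the Dickkopf family were low: Dkk3 averaged 1.198 ± 0.365 TPM (SD, n = 12), Dkk2 0.820 ± 0.218 TPM, Dkk4 0.597 ± 0.183 TPM and Dkk1 0.00496 ± 0.0117 TPM. The log2 difference of Dkk4 between the combination and VCR was 0.92 ± 0.27, which did not pass (edgeR adjusted p = 0.855).

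The Dickkopf genes, Fzd9 and Znrf3 are given here after their values were seen. Fzd9 averaged 0.309 TPM and had a log2 fold change of 3.71 ± 1.203 after VCR, just outside the threshold (edgeR adjusted p = 0.116). Znrf3, a ubiquitin ligase that removes Frizzled receptors, had a log2 fold change of -0.36 ± 0.11 after VCR (edgeR adjusted p = 0.107) and of 0.33 ± 0.11 in the combination against VCR (edgeR adjusted p = 0.855); neither passed.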
